A study of Mus musculus with 4 samples.

Results

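The genes described here are 40 genes of mitosis and the mitotic spindle, chosen by name for their place in cell division: kinases and cyclins of mitotic entry, the spindle checkpoint, the machinery of anaphase, the chromosomal passenger complex, the kinetochore, mitotic kinesins, spindle-associated proteins and cytokinesis. They were measured in 3T3-L1 cells, a mouse preadipocyte cell line, on day 2 of adipocyte differentiation. All cells had been grown to confluence and induced with insulin, dexamethasone and IBMX in serum-containing medium. Each culture carried an additive from the day of induction: DMSO alone as the vehicle control, bilberry extract at 100 µg/mL, delphinidin at 100 nM or cyanidin at 100 nM. The additives were dissolved in DMSO, and the medium of every culture held it at 0.1%. Delphinidin and cyanidin are anthocyanidins, the pigments from which the anthocyanins of bilberry are built, and delphinidin carries an additional hydroxyl group on its B-ring. Labeled RNA of each condition was hybridized to 1 Agilent Whole Mouse Genome array, and all 4 arrays lay on 1 slide. The array names the 40 genes on 66 of its 41174 non-control probes. Of these genes, 39 of the 19213 genes with a value on all 4 arrays could be compared, each through the brightest of its probes on average, and by the scanner software's own test all 39 of these were well above background on every array. The remaining gene, Bub1b, had its spot marked as an outlier on the bilberry array.

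There was 1 array per condition, so differences carry no p-value, and how they would repeat in further cultures is unknown. Signals are given relative to the 75th percentile of their own array (a relative signal of 1 is a spot at that percentile), and ratios are log2 ratios of these relative signals, where 1 is a 2-fold difference. The error that the scanner software assigns to a spot is at least 10% of its signal, which gives the ratio of the members an error between 0.20 and 0.30 on the log2 scale. This error covers the reading of a spot and not the cultures. In RNA from whole cultures, fewer cells in mitosis and less of a transcript per dividing cell cannot be told apart.

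Entry into mitosis is driven by the kinase CDK1 bound to a B-type cyclin, together with Polo-like and Aurora kinases that mature the centrosomes. The spindle checkpoint delays anaphase until every kinetochore is attached. Then the anaphase promoting complex with its activator CDC20 marks securin and cyclin B for degradation, cohesion is released, the chromosomes separate, and the central spindle places the cleavage furrow. Most of these genes are transcribed late in the cycle, and the CCAAT box and the cell cycle genes homology region (CHR) are known promoter elements of that program. Confluent 3T3-L1 cells pass through a short phase of renewed division after hormonal induction, called mitotic clonal expansion, before they become adipocytes.

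The promoters below show how these elements lie in the members that the later results turn on: Cdca5, the member with the highest ratio on the bilberry and delphinidin arrays, Cdc20 and Ube2c of the anaphase machinery, the kinesin Kif15, which was among the lowest with bilberry, and Kif11 and Prc1, which build the spindle and its midzone. Each line holds the 250 bases before the annotated start, 5′ to 3′ on the strand of the gene, from RefSeq on GRCm38.p6. Capitals mark CCAAT and the CHR letters TTTGAA on either strand (ATTGG and TTCAAA are their complements).
Cdca5: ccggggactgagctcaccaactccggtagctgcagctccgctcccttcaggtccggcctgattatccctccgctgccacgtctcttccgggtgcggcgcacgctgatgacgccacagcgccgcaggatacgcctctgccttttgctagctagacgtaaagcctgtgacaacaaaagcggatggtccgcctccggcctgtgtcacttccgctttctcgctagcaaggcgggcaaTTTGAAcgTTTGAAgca
Cdc20: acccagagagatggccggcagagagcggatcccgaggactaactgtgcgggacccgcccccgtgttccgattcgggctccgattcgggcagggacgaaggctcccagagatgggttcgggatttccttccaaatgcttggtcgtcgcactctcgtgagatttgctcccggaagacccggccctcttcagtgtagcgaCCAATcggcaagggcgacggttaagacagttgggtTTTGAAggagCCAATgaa
Ube2c: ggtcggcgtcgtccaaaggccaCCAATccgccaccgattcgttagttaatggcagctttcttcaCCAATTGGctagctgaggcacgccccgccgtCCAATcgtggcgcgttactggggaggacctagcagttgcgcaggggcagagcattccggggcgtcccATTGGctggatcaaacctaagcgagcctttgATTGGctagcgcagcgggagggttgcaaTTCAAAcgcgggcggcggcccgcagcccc
Kif15: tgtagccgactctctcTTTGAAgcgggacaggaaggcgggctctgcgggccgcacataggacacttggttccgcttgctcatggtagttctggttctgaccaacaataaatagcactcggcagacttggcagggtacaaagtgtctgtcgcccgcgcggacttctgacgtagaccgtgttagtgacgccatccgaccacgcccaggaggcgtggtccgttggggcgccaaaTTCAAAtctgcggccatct
Kif11: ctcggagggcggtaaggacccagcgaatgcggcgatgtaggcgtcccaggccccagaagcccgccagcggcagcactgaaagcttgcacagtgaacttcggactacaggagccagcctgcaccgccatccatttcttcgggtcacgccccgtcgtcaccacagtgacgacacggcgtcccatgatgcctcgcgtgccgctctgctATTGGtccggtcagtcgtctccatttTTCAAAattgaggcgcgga
Prc1: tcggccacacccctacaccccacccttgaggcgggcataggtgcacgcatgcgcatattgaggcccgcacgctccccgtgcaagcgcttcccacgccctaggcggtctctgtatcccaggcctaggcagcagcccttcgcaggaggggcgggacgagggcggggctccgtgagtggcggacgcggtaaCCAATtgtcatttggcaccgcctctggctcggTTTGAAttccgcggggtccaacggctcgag

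These windows lie at chr19:6084847-6085096 (plus strand) for Cdca5, chr4:118437344-118437593 (minus strand) for Cdc20, chr2:164769679-164769928 (plus) for Ube2c, chr9:122950831-122951080 (plus) for Kif15, chr19:37376132-37376381 (plus) for Kif11 and chr7:80294226-80294475 (plus) for Prc1. In Prc1 the CCAAT begins 62 bases and the TTTGAA 30 bases before the start, and in Kif11 the complements begin 45 and 19 bases before it. In Cdc20 a TTTGAA begins 18 bases before the start, with a CCAAT 53 bases and another 8 bases before it. The Ube2c window holds 6 CCAAT matches, of which a pair overlap on opposite strands, and a TTCAAA that begins 29 bases before the start. Cdca5 and Kif15 hold 2 CHR matches each and no CCAAT. Those of Cdca5 begin 17 and 9 bases before the start, and those of Kif15 234 and 19 bases before it. Over windows of 300 bases (250 before to 50 after the start) 36 of the 40 members had a promoter in the table, all but Aurkb, Incenp, Kif20a and Tpx2. CCAAT was present in 24 of the 36 (66.7%) and in 41.1% of all 27025 genes with a promoter. TTTGAA was present in 24 of the 36 (66.7%) and in 20.2% of all genes, and the variant TTCGAA in 2 members, Bub1 and Bub1b (5.56% against 1.80%). A CCAAT together with TTTGAA or TTCGAA was found in 21 members (58.3%) and in 8.61% of all genes. Matches on both strands were counted, and a match of letters is a description of the sequence only.

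With both anthocyanidins the mitotic genes stood above the DMSO array almost throughout, while with bilberry extract they lay on both sides of it. On the delphinidin array 38 of 39 members had a higher relative signal than on the DMSO array, with a median log2 ratio of 0.71, where 38.8% of all genes with a value and 48.7% of those well above background were higher. On the cyanidin array 36 of 39 were higher, with a median of 0.44, against 41.3% of all genes and 52.9% of those well above background. On the bilberry array 22 were higher and 17 lower, with a median of 0.11, against 68.2% of all genes and 62.0% of those well above background. The SD of the ratio over the 39 genes was 0.26 with delphinidin, 0.21 with cyanidin and 0.71 with bilberry, where it was 0.39, 0.36 and 0.66 over all genes well above background. These comparisons share the DMSO array.

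The scaling matters for the bilberry array. Its 75th percentile was 576, against 861 on the DMSO array, 1009 with delphinidin and 1016 with cyanidin, and after scaling the median log2 ratio of all genes to DMSO was 0.34 under bilberry, -0.11 under delphinidin and -0.09 under cyanidin. Relative to these medians the members stood at -0.24 under bilberry, 0.82 under delphinidin and 0.53 under cyanidin, and 13 of 39 members were above the median of all genes under bilberry, 39 under delphinidin and 37 under cyanidin. Among the 11966 genes well above background on all 4 arrays the median was 0.17 under bilberry, -0.01 under delphinidin and 0.02 under cyanidin. The spike-in control RNAs exceeded their DMSO level by 0.96 log2 units with bilberry before scaling, and within 0.03 of it on the other arrays. When the arrays were scaled to the spike-ins instead, all 39 members were lower than DMSO with bilberry (median -1.43), as were 97.5% of all genes (median -1.20). All 39 were higher with delphinidin (median 0.97) and with cyanidin (median 0.68), against 61.7% and 60.7% of all genes. This scaling moves every gene of an array alike, so the distance of the members from the median of all genes stayed at -0.24, 0.82 and 0.53.

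Past a 2-fold difference, 6 members stood on the bilberry array, where 13.7% of all genes with a value and 10.4% of those well above background were past 2-fold. The 3 that were higher were Cdca5, Aurkb and Melk (6.55% of all genes were over 2-fold higher), and the 3 that were lower were Hmmr, Kif15 and Kif18a (7.17% of all genes were over 2-fold lower). With delphinidin the only member past 2-fold was Cdca5, where 7.27% of all genes were past it (2.67% of those well above background, and 2.95% of all genes over 2-fold higher). With cyanidin there was none, where 6.87% of all genes and 1.75% of those well above background were. At a 1.5-fold difference the order turned: 29 of 39 members were over 1.5-fold higher with delphinidin (6.57% of all genes and 4.41% of those well above background) and 6 were with cyanidin (5.53% and 3.09%), namely Cdca5, Kif4, Melk, Nusap1, Plk1 and Ttk. With bilberry 11 were over 1.5-fold higher (18.2% and 18.5%) and 6 were over 1.5-fold lower (13.3% and 13.5%). Differences beyond 2 errors of the ratio numbered 34 with delphinidin and 24 with cyanidin, all of them higher, and 19 with bilberry, 12 higher and 7 lower. Of the genes well above background, 7.76% were higher by that measure with delphinidin, 7.76% with cyanidin and 30% with bilberry, and 18.2% were lower with bilberry.

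**Figure D1:**
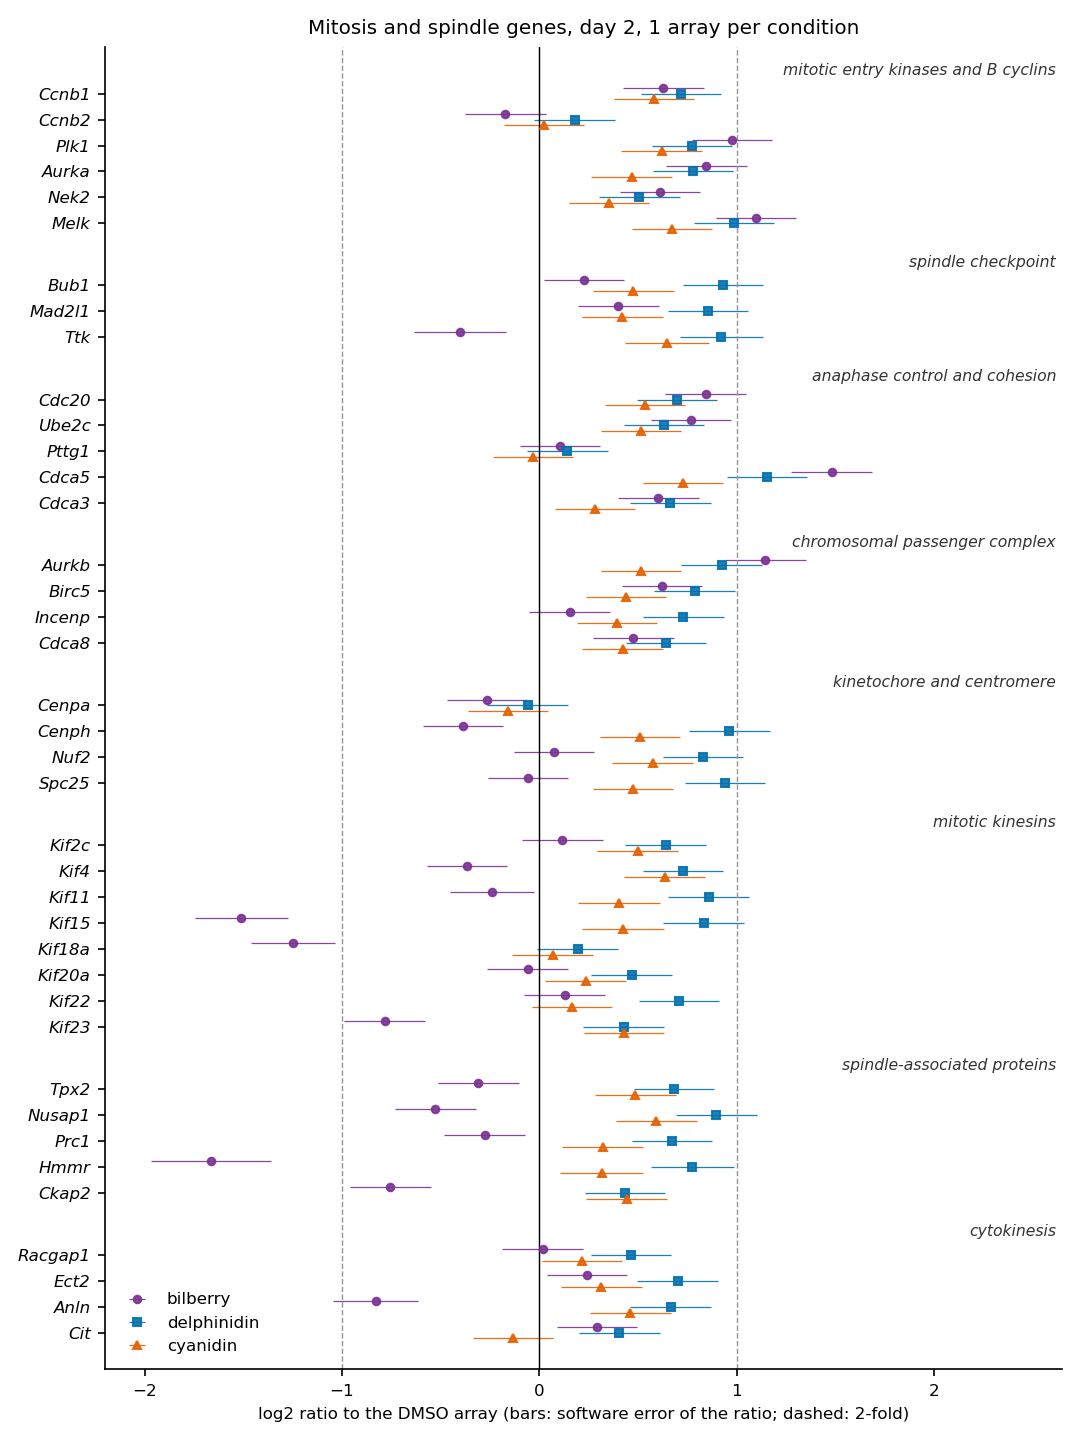
Log2 ratio of each of the 39 members to the DMSO array (x axis) on the bilberry, delphinidin and cyanidin arrays, grouped by role, with bars for the software's error of the ratio and dashed lines at 2-fold. The delphinidin points lie to the right of 0 for all members but Cenpa, while the bilberry points run from -1.66 for Hmmr to 1.48 for Cdca5 and all lie left of 0 when scaled to the spike-ins.

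Kinases and cyclins of mitotic entry were higher with all 3 additives, with Ccnb2 as the exception on the bilberry array, but all were lower with bilberry under the spike-in scaling. The medians of these 6 genes were 0.74 under bilberry, 0.75 under delphinidin and 0.53 under cyanidin, and 5 of 6 were over 1.5-fold higher with bilberry (18.2% of all genes were). Ccnb1, a cyclin that activates CDK1, had relative signals of 1.62 with DMSO, 2.51 under bilberry, 2.67 under delphinidin and 2.43 under cyanidin, and its 3 probes gave bilberry ratios between 0.63 and 0.79. Ccnb2, the other B-type cyclin, read 6.96, 6.18, 7.89 and 7.08 in the same order, so no array differed from DMSO by more than 0.18 on the log2 scale. Plk1, the Polo-like kinase of centrosome maturation and mitotic exit, read 5.35 with DMSO, 10.5 under bilberry, 9.15 under delphinidin and 8.23 under cyanidin, the bilberry value being 1.97-fold the control.

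Aurka, the Aurora kinase of the spindle poles, read 10.6 with DMSO, 19.0 under bilberry, 18.2 under delphinidin and 14.7 under cyanidin. Here the bilberry and delphinidin arrays lay close together (ratios of 0.85 and 0.78) and the cyanidin array lower (0.47). Nek2, a kinase that separates the centrosomes, had ratios of 0.61, 0.51 and 0.35. Melk, a kinase expressed in dividing and progenitor cells, read 0.928 with DMSO, 1.99 under bilberry, 1.84 under delphinidin and 1.48 under cyanidin, which gave ratios of 1.10, 0.99 and 0.67. All members of this role except Ccnb2 thus read above DMSO on every treated array under the percentile scaling. With bilberry, delphinidin and cyanidin, 68.2%, 38.8% and 41.3% of all genes did.

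Genes of the spindle checkpoint had high ratios with delphinidin and spread ones with bilberry. Bub1, a checkpoint kinase of the kinetochore, read 1.08 with DMSO, 1.27 under bilberry, 2.07 under delphinidin and 1.51 under cyanidin. Mad2l1, which encodes the MAD2 protein that restrains CDC20, read 1.54, 2.03, 2.77 and 2.06 in that order, and its second probe gave ratios of 0.61, 0.89 and 0.57 beside 0.40, 0.85 and 0.42. Ttk, the kinase that starts checkpoint signaling, read 0.0859 with DMSO, 0.0649 under bilberry, 0.163 under delphinidin and 0.135 under cyanidin. Delphinidin was thus the highest array for all 3, with ratios from 0.85 to 0.93, while the bilberry ratios went from -0.40 for Ttk to 0.40 for Mad2l1. Bub1b, the BUBR1 component of the mitotic checkpoint complex, gave a bilberry ratio of 0.43 with its marked spot kept. Its spots on the other arrays were not marked. They gave 0.51 with delphinidin and 0.62 with cyanidin, so delphinidin was not the highest array for Bub1b.

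Among the genes that trigger anaphase and guard cohesion, Cdca5 had the highest bilberry ratio of all members. Cdc20, the activator of the anaphase promoting complex, read 14.2 with DMSO, 25.4 under bilberry, 23.0 under delphinidin and 20.5 under cyanidin. Ube2c, the ubiquitin-conjugating enzyme of that complex, read 3.59, 6.11, 5.56 and 5.13, and scaled to the spike-ins the bilberry ratios of Cdc20 and Ube2c were -0.70 and -0.77. Cdca5, which encodes sororin, a protector of sister chromatid cohesion, read 3.59 with DMSO, 10.0 under bilberry, 7.99 under delphinidin and 5.95 under cyanidin. It was 2.79-fold the control under bilberry, 2.22-fold under delphinidin and 1.66-fold under cyanidin, and its second probe gave log2 ratios of 1.11, 1.13 and 0.83 beside 1.48, 1.15 and 0.73.

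Pttg1, which encodes securin, the inhibitor of separase, lay close to the control: it read 6.29 with DMSO, 6.77 under bilberry, 6.95 under delphinidin and 6.16 under cyanidin, all within 0.15 on the log2 scale of it under the percentile scaling. Cdca3, a factor linked to mitotic entry, had ratios of 0.60 under bilberry, 0.66 under delphinidin and 0.28 under cyanidin. Over these 5 genes the medians were 0.77, 0.66 and 0.52, and scaled to the spike-ins the bilberry ratio of Cdca5 was -0.060.

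The chromosomal passenger complex, which corrects faulty attachments and prepares cytokinesis, was higher with each additive for all 4 subunits (medians of 0.55 under bilberry, 0.76 under delphinidin and 0.43 under cyanidin), a direction that turned with bilberry under the spike-in scaling. Of all genes 68.2%, 38.8% and 41.3% were higher on the same arrays. Its kinase Aurkb read 0.466 with DMSO, 1.03 under bilberry, 0.885 under delphinidin and 0.667 under cyanidin. Birc5, which encodes survivin, read 15.3, 23.5, 26.4 and 20.7 in that order. Incenp, the scaffold, read 18.7, 20.8, 31.1 and 24.6. The bilberry ratio therefore ranged from 0.15 for Incenp to 1.15 for Aurkb within a complex whose delphinidin ratios lay between 0.64 and 0.93. Cdca8, which encodes borealin, had ratios of 0.48, 0.64 and 0.42, and a second bright probe gave 0.46, 0.69 and 0.37.

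At the kinetochore the bilberry ratios were near or below 0 and delphinidin gave ratios close to 1 for 3 of 4 genes. Cenph, a constitutive centromere protein, read 1.79 with DMSO, 1.37 under bilberry, 3.49 under delphinidin and 2.55 under cyanidin. Spc25, a subunit of the NDC80 complex that binds microtubules, read 1.99, 1.91, 3.82 and 2.77, and its partner Nuf2 read 1.07, 1.12, 1.89 and 1.59. For these 3 genes the delphinidin ratios were between 0.83 and 0.96 and the bilberry ratios between -0.39 and 0.07. Cenpa, the histone H3 variant that marks the centromere, was the member at or under the control with every additive, with relative signals of 1.33, 1.11, 1.28 and 1.20 and ratios of -0.26, -0.06 and -0.16, the last 2 within 1 error of 0 and turned to 0.20 and 0.08 under the spike-in scaling. A second Cenph probe, at a deposited signal of 28.8 on the DMSO array, went the other way, with ratios of 2.26, -0.46 and -1.28, and the reason for this disagreement was not tested.

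Mitotic kinesins, the motors that build and move the spindle, were higher with delphinidin and cyanidin in 8 of 8 cases and with bilberry in 2 of 8 (none under the spike-in scaling), with medians of 0.67, 0.41 and -0.30. Of all genes 38.8%, 41.3% and 68.2% were higher on these arrays. Kif11, the motor that pushes the spindle poles apart, read 0.160 with DMSO, 0.136 under bilberry, 0.290 under delphinidin and 0.212 under cyanidin. Kif15, which can share that task, read 0.169, 0.0594, 0.301 and 0.227. Kif18a, which dampens the movements of aligned chromosomes, read 0.259, 0.109, 0.296 and 0.272. For Kif15 and Kif18a the bilberry array was by far the lowest, 2.85-fold and 2.38-fold under DMSO, and Kif18a differed from DMSO by less than 0.20 on the log2 scale with the anthocyanidins.

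Kif23, the motor of the centralspindlin complex, read 0.621 with DMSO, 0.361 under bilberry, 0.836 under delphinidin and 0.837 under cyanidin, and its second probe agreed to within 0.11 in each ratio. The chromokinesin Kif4 had ratios of -0.37, 0.73 and 0.64, and its second probe gave -0.33 with bilberry. Kif2c, a microtubule depolymerase, had 0.12, 0.64 and 0.50, Kif22, the chromokinesin of chromosome arms, 0.13, 0.71 and 0.17, and Kif20a, a motor of cytokinesis, -0.06, 0.47 and 0.23. The kinesins thus ran from -1.51 to 0.13 with bilberry and from 0.19 to 0.86 with delphinidin.

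Proteins that organize spindle microtubules were lower with bilberry in 5 of 5 cases and higher with delphinidin and cyanidin in 5 of 5, with medians of -0.53, 0.68 and 0.44. Of all genes 31.8% were lower with bilberry, or 97.5% under the spike-in scaling, and 38.8% and 41.3% were higher with the anthocyanidins. Hmmr, a receptor of hyaluronan that also binds the spindle, read 0.0954 with DMSO, 0.0301 under bilberry, 0.163 under delphinidin and 0.119 under cyanidin, the lowest bilberry ratio of all members at -1.66 ± 0.30 (software error). Nusap1, which bundles microtubules near the chromosomes, read 1.97, 1.37, 3.68 and 2.98. Ckap2, a microtubule-associated protein of the poles, had ratios of -0.76, 0.43 and 0.44, and its second probe gave -1.05 with bilberry. Tpx2, which activates Aurora A on the spindle, had -0.31, 0.68 and 0.49, and Prc1, which crosslinks the midzone, -0.28, 0.67 and 0.32. In Tpx2, Nusap1 and Prc1 the bilberry ratio was between -0.53 and -0.28, and scaled to the spike-ins between -2.07 and -1.82.

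For cytokinesis the medians were 0.13 under bilberry, 0.57 under delphinidin and 0.27 under cyanidin. Anln, the anillin that scaffolds the contractile ring, read 0.217 with DMSO, 0.122 under bilberry, 0.344 under delphinidin and 0.298 under cyanidin. Ect2, which activates RhoA at the furrow, read 1.34, 1.58, 2.18 and 1.67. Racgap1, a subunit of the centralspindlin complex, read 1.03, 1.04, 1.42 and 1.19. Cit, the citron kinase of the midbody, read 0.533, 0.653, 0.705 and 0.486, with ratios of 0.29, 0.41 and -0.13. This Cit probe, the brightest, was designed to a transcript on the strand opposite to the gene and to its other probes, which lie on the plus strand, so its values may not be those of the Cit transcript. No other probe of the members whose gene has a strand in the promoter table lay on the opposite strand. The brighter plus-strand probe on average gave -0.37, -0.14 and -0.19, and the other gave 1.05, 0.34 and 0.28. Without Cit the cytokinesis medians were 0.02, 0.67 and 0.31. For 3 of the 4 genes the bilberry value depended on the probe: a dimmer Anln probe gave 0.12 where the bright one gave -0.83, a second Racgap1 probe gave 0.70 beside 0.02, and the 3 Cit probes gave -0.37, 0.29 and 1.05.

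The 6 members past 2-fold on the bilberry array are plotted by array. Their probes lie, in the coordinates of the array files on mm8, at chr19:6091709-6091768 for Cdca5, chr11:68867730-68867789 for Aurkb, chr4:44385061-44385120 for Melk, chr2:109142098-109142157 for Kif18a, chr9:122866878-122866937 for Kif15 and chr11:40549418-40549477 for Hmmr. No annotation of that build was used here, so the exon or untranslated region under each probe is not given. The 3 members that were higher had a deposited signal of 401 or more with DMSO, and those that were lower had 223 (Kif18a), 146 (Kif15) and 82.1 (Hmmr), against 62.8, 34.2 and 17.3 on the bilberry array. With the normexp background correction, which adds an offset of 50 to every signal, their bilberry ratios were -0.69, -0.61 and -0.37 and no longer past 2-fold. The other Kif15 probes, and the second Kif18a and Melk probes, were not well above background on the bilberry array.

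**Figure D2:**
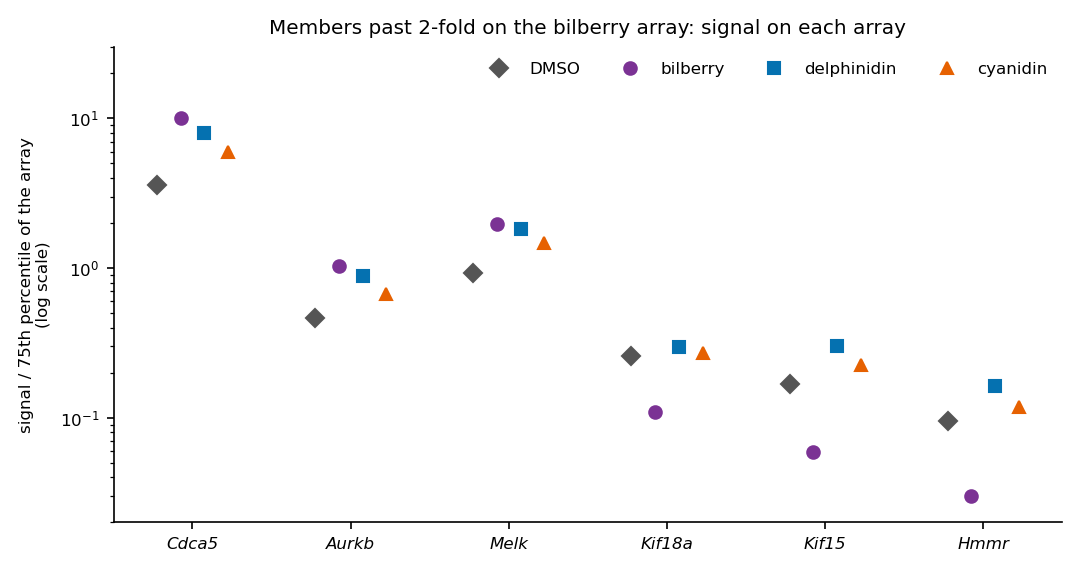
Signal relative to the 75th percentile of the array (y axis, log scale) of the 6 members past 2-fold on the bilberry array, with 1 point per array. Cdca5, Aurkb and Melk are highest on the bilberry array but below DMSO there when scaled to the spike-ins, while Kif18a, Kif15 and Hmmr are lowest there, and the 4 points of a gene should not be set against those of another gene.

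The 2 anthocyanidins were given at the same dose and day, which allows 1 direct comparison without the DMSO array. Delphinidin read higher than cyanidin for 37 of 39 members, with a median log2 ratio of 0.28 and an SD over genes of 0.15, where 39.5% of all genes and 43.4% of those well above background were higher. No member was past 1.5-fold or 2-fold in this comparison, where 6.43% of all genes and 0.719% of those well above background were past 2-fold, and 6.3% and 1.41% were over 1.5-fold higher with delphinidin. Kif22 was the farthest at 0.54 ± 0.20 (software error), followed by Spc25 at 0.47, Hmmr at 0.46 and Bub1, Kif11 and Cenph at 0.45. Cit read 0.54 through its opposite-strand probe and 0.06 through each of its plus-strand probes. The pair Kif23 and Ckap2 lay at -0.00 and -0.01. All 39 members were above the median of all genes, which was -0.02, and 10 members differed from 0 by more than 2 errors, all of them higher with delphinidin (3.33% of the genes well above background were).

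By role, the difference between delphinidin and cyanidin had medians of 0.43 for the checkpoint (3 genes) and 0.35 for the kinetochore (4 genes). Bub1b, whose mark is on the bilberry array only, lay at -0.12 here, and with it the checkpoint median was 0.35. The smallest medians were those of the mitotic entry genes (0.15 over 6) and the anaphase genes (0.17 over 5). The passenger complex had 0.34, cytokinesis 0.32 (0.25 without Cit), the spindle-associated proteins 0.30 and the kinesins 0.19. These values describe how the single arrays of the compounds differed for the members. The compounds differ by a hydroxyl group on the B-ring, and its part in these values was not tested. No test or interval of the difference beyond the software error could be given with 1 array each.

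**Figure D3:**
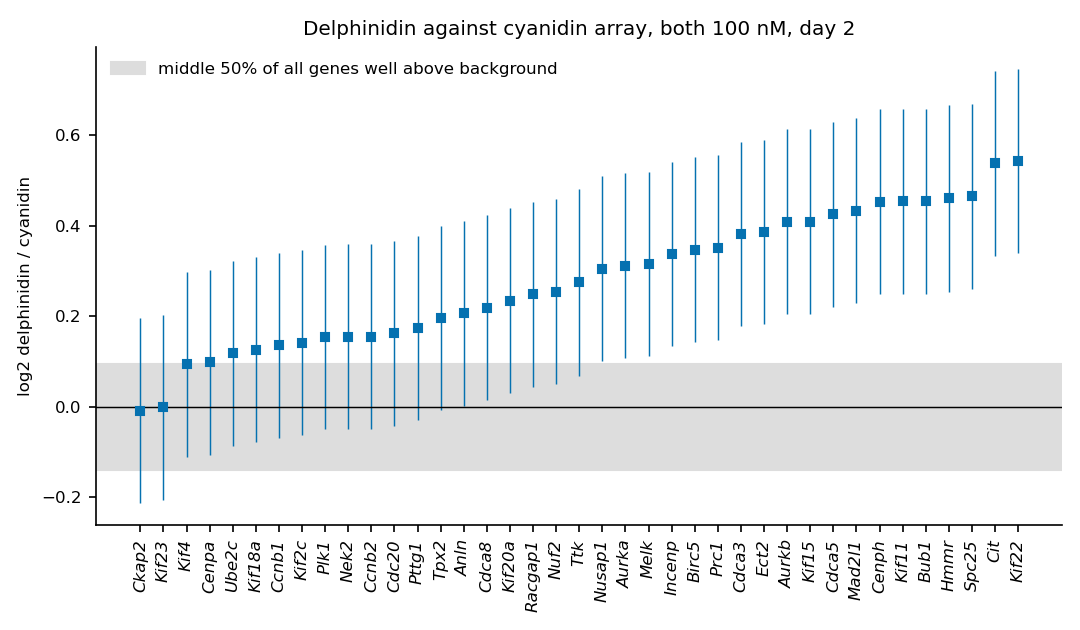
Log2 ratio of the delphinidin to the cyanidin array (y axis) for each of the 39 members in rising order, with bars for the software's error and a grey band for the middle 50% of all genes well above background. Values run from -0.01 for Ckap2 to 0.54 for Kif22, and all but Ckap2, Kif23 and Kif4 lie above the band.

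What the members share beyond their roles was examined next. The span of the gene on the chromosome, from the RefSeq gene table of GRCm38.p6, ran from 2.97 kb (Ube2c) to 164 kb (Cit). Across the 39 members the bilberry ratio correlated with the logarithm of the span at r = -0.53 (Spearman's rho -0.56), while the delphinidin ratio gave 0.03 (0.06) and the cyanidin ratio -0.04 (0.00). Across the 11966 genes well above background the bilberry value was -0.17 (rho -0.19). These are correlations across genes of the same pair of arrays, which are not independent replicates. In the 13 members with the shortest span (2.97 to 11.6 kb) the bilberry median was 0.62 and 11 were higher than DMSO. In the middle 13 (12.3 to 31.7 kb) it was 0.02, and in the 13 with the longest span (31.9 to 164 kb) it was -0.37, with 4 higher, and all were lower under the spike-in scaling. All genes well above background in the same ranges of span had medians of 0.29, 0.18 and 0.06. Whatever their span, 62.0% of the genes well above background were higher than DMSO with bilberry. The delphinidin medians of the same 3 groups were 0.70, 0.67 and 0.78.

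Exceptions to this order were Melk, at 63.8 kb with a bilberry ratio of 1.10, and Cit, at 164 kb with 0.29 through its opposite-strand probe, while Ckap2, at 17.7 kb, had -0.76. Among the members the signal on the DMSO array went along with the ratio as well (r = 0.53, rho 0.45 with bilberry, and -0.06 and -0.07 with delphinidin). Across the 11966 genes well above background the bilberry value was 0.04 (rho 0.07). The DMSO signal is also the denominator of the ratio. The parts of gene span, signal and role in the bilberry values were not tested.

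**Figure D4:**
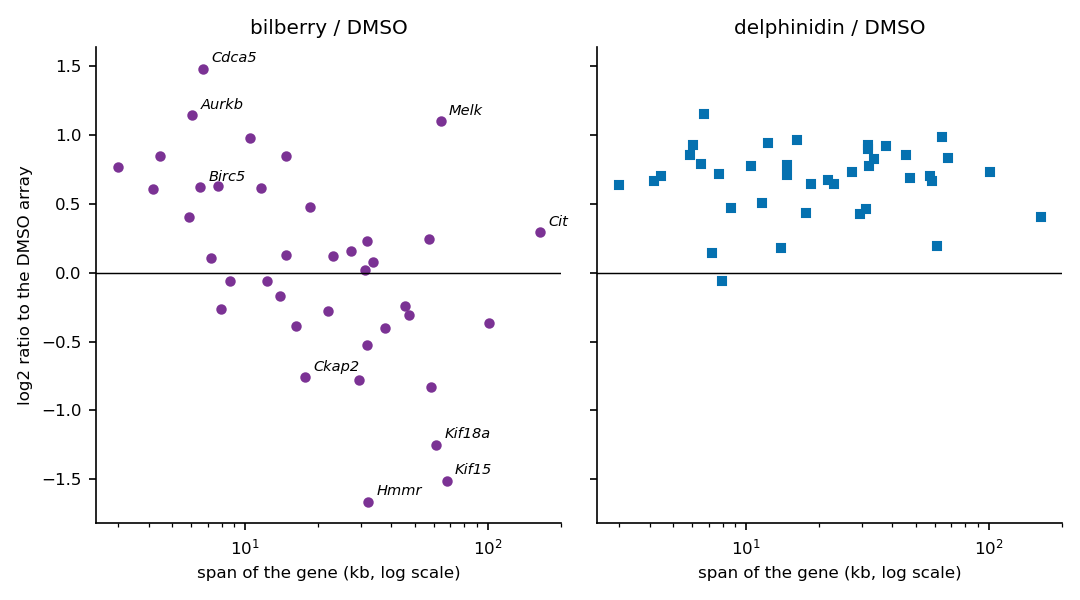
Log2 ratio to the DMSO array (y axis) against the span of the gene in kb (x axis, log scale) for the 39 members, with bilberry on the left and delphinidin on the right. The bilberry points lie higher among short genes (0.77 for Ube2c at 2.97 kb) than among long ones (-1.51 for Kif15 at 67.7 kb), with exceptions such as Melk at 63.8 kb with 1.10. All bilberry points are below 0 when scaled to the spike-ins. The delphinidin points run from -0.06 for Cenpa to 1.15 for Cdca5 and correlate with span at r = 0.03.

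Probes of the same member gave similar ratios in most cases. Of 12 members with more than 1 unmarked probe well above background on all 4 arrays, the probes lay within 0.5 of each other for 8 with bilberry, 10 with delphinidin, 11 with cyanidin and 12 in the direct comparison of delphinidin with cyanidin. The 4 members past that limit with bilberry were Cenph, Cit, Anln and Racgap1. Among these probes, those past 2-fold where the brightest probe was not belonged to Cenph, Cit and Ckap2 with bilberry and to Cenph with cyanidin. A dimmer Ect2 probe was not well above background on the bilberry array.

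Other genes of the program were taken from lists of general knowledge. Of 52 further mitotic genes 51 had a value, and their medians were 0.38 under bilberry, 0.67 under delphinidin and 0.46 under cyanidin, close to those of the 39 members with the anthocyanidins. With delphinidin 4 of the 51 were over 2-fold higher (2.95% of all genes), among them Trip13 at 1.12, Pbk at 1.12 and Shcbp1 at 1.08. With bilberry 4 were over 2-fold higher and 5 over 2-fold lower, shares near those of all genes (6.55% and 7.17%), and the lowest were Cenpe, the kinetochore motor, at -3.48, Mki67, the proliferation antigen, at -3.32, and Cenpf at -2.86. Mki67 had deposited signals of 6458 with DMSO, 432 under bilberry, 11511 under delphinidin and 9522 under cyanidin. Cdk1, the partner kinase of the B-type cyclins, had ratios of 1.04, 0.91 and 0.76, and Ccna2, the A-type cyclin of S phase and mitotic entry, 0.79, 0.84 and 0.60.

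Condensin and cohesin subunits, which shape and hold the chromosomes, had medians over 15 genes of 0.14 with delphinidin and 0.16 with cyanidin, and these differed by complex. The 7 condensin genes had medians of 0.59 and 0.39, with all 7 higher with delphinidin (38.8% of all genes were), and the 8 cohesin genes 0.09 and 0.07. With bilberry the median of the 15 was -0.29, and the lowest were Smc4 at -2.79, Smc3 at -2.46 and Smc1a at -1.60, while Smc2 was over 2-fold higher with delphinidin, at 1.10. The anaphase promoting complex, whose activator Cdc20 and enzyme Ube2c are members, was followed through 12 subunits, which had medians of 0.38 under bilberry, 0.05 under delphinidin and 0.06 under cyanidin. With 3 of its regulators in the same list the medians were 0.46, 0.08 and 0.07. These regulators, named to describe the list, are the activator Fzr1, the enzyme Ube2s and the inhibitor Fbxo5. None of the 15 was past 2-fold, where 13.7%, 7.27% and 6.87% of all genes were. Fbxo5 had the highest delphinidin ratio of the list, at 0.94, and was chosen after its value was seen. Among 19 transcriptional regulators of mitotic genes the medians were 0.21, 0.39 and 0.29. Foxm1, a factor of the late cell cycle, had ratios of 1.02, 0.75 and 0.53, and Mybl2, its B-MYB partner, 1.68, 1.30 and 0.88. E2f7 and E2f8, the repressor E2Fs, had 1.30 and 1.28 with bilberry and 1.19 and 1.46 with delphinidin.

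DNA replication genes, which are used in S phase, had higher medians than the members with every additive. Over 40 genes the medians were 0.96 under bilberry, 0.97 under delphinidin and 0.57 under cyanidin. Over 2-fold higher were 18, 18 and 1 of the 40, where 6.55%, 2.95% and 2.4% of all genes were. Mcm5 reached 1.70 and Rrm2 1.66 with bilberry, and Rrm2 reached 1.51 with delphinidin and 1.11 with cyanidin. CDK inhibitors and p53 target genes had medians of 0.43, 0.18 and 0.17 over 19 genes. Those past 2-fold were Sesn2 with bilberry at 1.18 and Eda2r with cyanidin at 1.05, where 13.7% and 6.87% of all genes were. Scaled to the spike-ins, bilberry ratios are lower by 1.54 in every list.

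**Figure D5:**
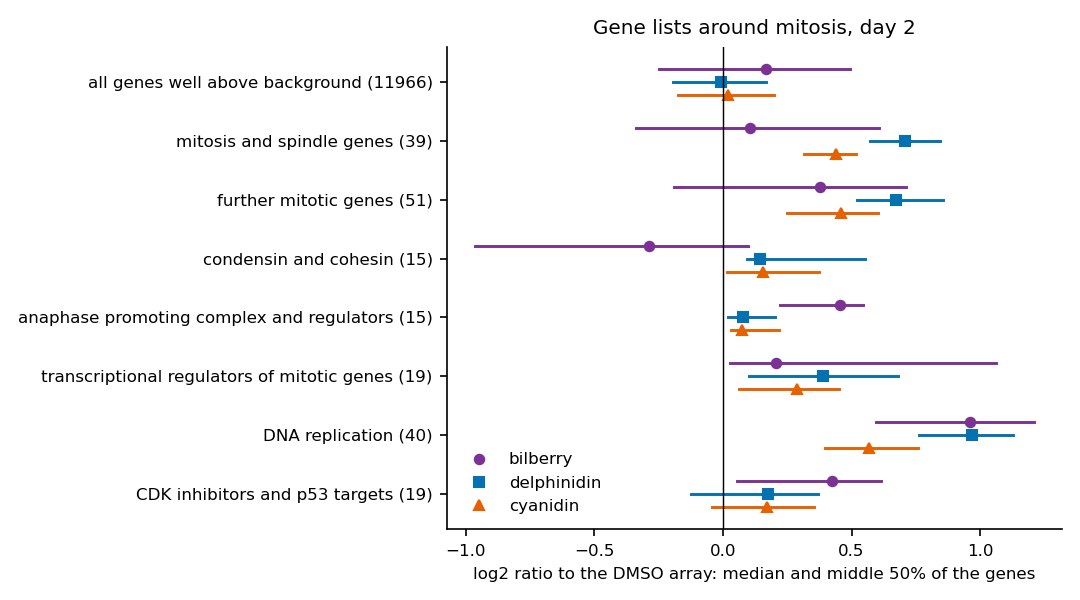
Median (point) and middle 50% of the genes (bar) of the log2 ratio to the DMSO array (x axis) for the members, for lists around mitosis and for all genes well above background, with the number of genes in parentheses. The members and the further mitotic genes share medians of 0.71 and 0.67 with delphinidin, DNA replication genes lie higher, and the bilberry bars, which the spike-in scaling moves below 0, are the widest for most lists.

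The labels call the cells adipocytes. Of 13 preadipocyte and adipocyte markers 12 were well above background on all 4 arrays, from Dlk1 and Pdgfra of preadipocytes to Fabp4 and Plin1 of adipocytes, and Lep was on none. Of 10 markers of leukocytes, endothelium, epithelium, liver and muscle, 9 were well above background on none of the arrays, and Des was on all 4. Of the 12 adipose markers, the number higher than DMSO was 7 under bilberry, 6 under delphinidin and 5 under cyanidin (62.0%, 48.7% and 52.9% of the genes well above background were). The one past 2-fold was Adipoq, the gene of adiponectin, at -1.07 with bilberry, where 10.4% of the genes well above background were.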

How the data were processed

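1 RNA sample per condition was labeled with 1 dye and hybridized by the authors, who deposited the output of the Agilent scanner software. Its processed signal, the deposited intensity, had the local background subtracted by that software, and equals the deposited series table. Signals were divided by the 75th percentile of the 43379 non-control spots of their array and converted to log2. The paper's methods name the same percentile over all measurements, after a floor on low values. Spots marked as uneven or outlying (701 to 875 on an array) were not used, and replicate spots were averaged. The SD of replicate spots was between 0.053 and 0.063 on the log2 scale, over 245 probes.

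Genes were named from the files, with 24375 probes named through accessions in a table of GRCm38.p6. The text names all members, of each other list the 3 genes at most that lay farthest past 2-fold in a comparison, and Foxm1, Mybl2, Cdk1 and Ccna2. Fzr1, Ube2s and Fbxo5 are named outside this rule, to describe their list. Marker genes and other probes of a member are named where a result turns on them. Members, lists and comparisons were chosen with earlier results of these data known. The authors' RT-PCR, western blotting and staining are not analysed here.

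No test was made, since each condition has 1 array, and ratios carry the error the software gives each spot. Alternatives were spike-in scaling, quantile normalization, normexp with an offset of 50 fitted without marked spots, a filter on background, the median over probes, marked spots kept, the deposited table, probes outside a band of array rows, other gene names, a 1.5-fold threshold and, chosen after seeing the data, leaving out the opposite-strand probe of Cit. The calculation of ratios was tested on simulated data. The tools were R 4.3.3 with limma 3.58.1, and Python 3.11.15 with scipy 1.17.1, pandas 2.3.3, numpy 2.4.6 and matplotlib 3.10.9.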

Additional observations from a re-analysis of the deposited data

Results flagged for a closer look

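For 3 of the 39 members the bilberry array was over 1.5-fold below DMSO and the delphinidin array over 1.5-fold above it. Among all genes, 0.952% lay past 1.5-fold on opposite sides of DMSO on these arrays, and 0.276% of those well above background did. Kif15 had a log2 ratio of -1.51 under bilberry, 0.83 under delphinidin and 0.42 under cyanidin. For Hmmr the ratios were -1.66, 0.78 and 0.32, and for Anln they were -0.83, 0.67 and 0.46. The log2 ratio of bilberry to delphinidin was -2.34 for Kif15, -2.44 for Hmmr and -1.50 for Anln. It follows from the 2 ratios by which these members were picked and adds no support of its own. The ratios to DMSO share that array, each condition has 1 array, and the difference between the arrays was not tested. Kif15 and Hmmr had deposited signals of 34.2 and 17.3 on the bilberry array, and a dimmer Anln probe gave 0.12 there. Under normexp the bilberry ratios of Hmmr and Anln were -0.37 and -0.39 and not past 1.5-fold, and with the median over probes Anln was at -0.35 and Kif15 turned to 0.88.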

How the results depend on the processing

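No paired analysis was possible because each condition has 1 array. Under spike-in scaling the bilberry median was -1.43 with 28 members past 2-fold, all lower (66% of all genes were), the delphinidin median was 0.97 with 16 past 2-fold, all higher (4.84% of all genes were), and the cyanidin median was 0.68. Under it Aurkb, Cdca5 and Melk turned to -0.40, -0.060 and -0.44 with bilberry. Members past 2-fold with bilberry numbered 3 under normexp, 3 with the median over probes and 3 outside the band of array rows 209 to 428, where 31 members had a probe, and 4.2%, 12.4% and 11.9% of all genes were past 2-fold in these settings. Those past 2-fold with delphinidin numbered 3 under quantile normalization (6.67% of all genes) and 0 outside the band (4.83%), and with cyanidin 1 outside the band (4.25%). The cyanidin call was Kif11, lower at -1.06 through a dim probe that was well above background on no array. Its brightest probe gave 0.40. Kif15 turned to 0.88 with bilberry with the median over probes and outside the band, where its probe was not well above background. At 1.5-fold the bilberry count was 17, with 11 higher and 6 lower (18.2% and 13.3% of all genes were). It was 29 with delphinidin and 6 with cyanidin, all higher (6.57% and 5.53% of all genes were). Quantile normalization turned the bilberry median from 0.11 to -0.05, where that of all genes was 0.02. Leaving out the opposite-strand probe of Cit was an alternative chosen after seeing the data. It gave -0.37, -0.14 and -0.19 for Cit and a bilberry median of 0.07. With delphinidin 37 members were then higher (38.8% of all genes were, with that probe kept). The comparison of delphinidin with cyanidin kept its median between 0.25 and 0.31 under all alternatives run. Keeping marked spots moved Kif20a, whose brighter probe then counted, to -0.03, 0.50 and 0.21, and changed no other ratio. The deposited table, the background filter and the other gene names changed no ratio of the 39 members. The normexp correction moved the low bilberry ratios of Hmmr, Kif15, Kif18a and Anln to -0.37, -0.61, -0.69 and -0.39. It left those of Nusap1, Tpx2 and Prc1 near their values, at -0.54, -0.33 and -0.28. The part of signals near background in the low bilberry values was not tested.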

Other observations

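Within the band of array rows 209 to 428, where probes past 2-fold in all 3 treatments were denser (3.12% of 16632 probes inside, 1.02% of 22496 outside), lay the representative probes of 15 of the 39 members. Their median log2 ratios were -0.06 with bilberry, 0.71 with delphinidin and 0.42 with cyanidin, and those of the 24 members outside were 0.14, 0.72 and 0.45. The part of the band in the results was not tested.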
